A study of Mus musculus with 4 samples.

Results

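Early erythroid Gata1 Klf1 progenitors were taken as the cells with at least 1 UMI (unique molecular identifier, 1 captured transcript) of Gata1, at least 1 UMI of Klf1, and less than 1% of their UMIs from the globin genes Hba-a1, Hba-a2, Hbb-bs and Hbb-bt. The rule found 205 of 9960 cells, which is 2.06%, and 204 of the 205 came from the wild type. Since the rule reads expression, the levels of these 6 genes describe how the cells were chosen, and no test was made on them.

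Erythropoiesis in the fetal liver starts from multipotent progenitors that switch on GATA1, a zinc finger transcription factor, and KLF1, an erythroid Krüppel-like factor that binds CACCC boxes of erythroid genes. Commitment is accompanied by the silencing of Gata2, the GATA factor of stem and progenitor cells, and globin and heme synthesis follow. Cells that hold Gata1 and Klf1 transcripts without abundant globin are therefore placed at the entry to the erythroid lineage, close to the branches that lead to megakaryocytes and to mast cells or basophils.

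The study sorted Lin-Sca-cKit+Cd34+ progenitors (stem cell factor receptor and CD34 present, lineage markers and Sca1 absent) from the fetal livers of C57Bl/6J embryos at E14.5 and sequenced single cells on the 10x Genomics Chromium platform. Libraries A and B were -77-/-, which lack on both alleles an enhancer -77 kb from Gata2, and libraries F and I were WT. The same gate was used in both genotypes. Each genotype had 2 embryos with a library each, and the library letters could not be tied to sample numbers.

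In the deposited counts, which are named as a subsample, each genotype held 4980 cells in a panel of 3624 genes. The median UMIs per cell were 7492 in A and 7087 in B, against 12826.5 in F and 17437.5 in I, so that a transcript was easier to detect in WT cells. The Gata1 Klf1 cells had a median of 12724.5 UMIs in F and 14446 in I, not above the median of their own library. Xist UMIs were found in 0 of the 126 Gata1 Klf1 cells of F and in 78 of the 78 of I, so the WT libraries also differ in that respect.

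The sequences around the start sites of Gata1 and Klf1, and of Gfi1b, Icam4 and Ermap among the genes that rose, are given first. GATA and CACCC motifs are the binding sequences of the factors that define the cells. The printed genes are a selection, and the other rises are described after them. Windows ran from 250 bases before to 50 bases after the start site (RefSeq, GRCm38.p6), printed 5′ to 3′ on the strand of the gene. Gfi1b (chr2:28621933-28622232, minus strand), a zinc finger repressor of erythroid and megakaryocyte cells, and Icam4 (chr9:21029182-21029481, plus strand), the Landsteiner-Wiener adhesion protein of red cells, held both motifs. Klf1 (chr8:84901732-84902031, plus strand) and Ermap (chr4:119189946-119190245, minus strand), an erythroblast membrane protein, held a GATA motif, and Gata1 (chrX:7967861-7968160, minus strand) held 3 CACCC motifs. Capitals mark matches on either strand of the GATA motif, spelled with an ending in A as AGATAA and with the other allowed start as TGATAA, or with an ending in G as AGATAG and with the other allowed start as TGATAG, and of the CACCC motif, spelled CCNCNCCC, and matches of 1 motif were allowed to overlap.
Gfi1b: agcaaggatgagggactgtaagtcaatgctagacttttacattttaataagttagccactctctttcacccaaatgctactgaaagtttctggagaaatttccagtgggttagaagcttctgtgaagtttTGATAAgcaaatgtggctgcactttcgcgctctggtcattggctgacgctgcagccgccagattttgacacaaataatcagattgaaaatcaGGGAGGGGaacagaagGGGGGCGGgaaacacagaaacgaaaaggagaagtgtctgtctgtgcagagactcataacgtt
Icam4: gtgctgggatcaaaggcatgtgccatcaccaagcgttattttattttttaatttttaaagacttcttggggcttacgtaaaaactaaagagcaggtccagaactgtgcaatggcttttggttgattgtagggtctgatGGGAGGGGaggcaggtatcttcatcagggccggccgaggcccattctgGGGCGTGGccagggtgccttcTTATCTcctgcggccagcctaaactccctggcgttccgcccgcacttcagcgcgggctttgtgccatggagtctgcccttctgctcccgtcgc
Klf1: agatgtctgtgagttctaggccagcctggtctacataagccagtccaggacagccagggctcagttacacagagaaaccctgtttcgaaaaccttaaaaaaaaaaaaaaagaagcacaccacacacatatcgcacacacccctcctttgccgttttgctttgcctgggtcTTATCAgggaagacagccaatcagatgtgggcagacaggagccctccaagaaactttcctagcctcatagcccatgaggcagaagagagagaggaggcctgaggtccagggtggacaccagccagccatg
Ermap: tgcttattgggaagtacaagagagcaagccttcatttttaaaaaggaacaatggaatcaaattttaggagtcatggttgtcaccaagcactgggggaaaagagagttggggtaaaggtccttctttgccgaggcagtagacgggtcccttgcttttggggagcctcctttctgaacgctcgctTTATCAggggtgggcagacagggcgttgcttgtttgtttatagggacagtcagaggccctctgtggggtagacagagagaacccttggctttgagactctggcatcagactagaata
Gata1: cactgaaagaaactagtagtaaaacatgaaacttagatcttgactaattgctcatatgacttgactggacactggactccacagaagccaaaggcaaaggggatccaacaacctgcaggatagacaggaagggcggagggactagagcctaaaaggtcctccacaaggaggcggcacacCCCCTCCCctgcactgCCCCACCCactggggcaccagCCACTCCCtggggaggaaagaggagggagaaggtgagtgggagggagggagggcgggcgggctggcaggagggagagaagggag

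Of the 15 genes with the largest rises in Gata1 Klf1 cells, described below, 12 had a window in the table, with 13 windows in all. A GATA motif lay in 5 of the 13 windows (38.5%), against 19.1% of the 3530 windows of the panel. Among the rises not printed above, Gm15915, Cited4, Smim1, Zfpm1, Tspo2, F2r and Rnase12 held a CACCC motif but no GATA motif. Ms4a2 and Muc13, also not printed, held a GATA motif. A CACCC motif lay in 10 of the 13 (76.9%), against 67.3% of all windows. For the genes with the largest falls, 2 of 10 windows held a GATA motif (20%) and 4 a CACCC motif (40%). These shares rest on few windows and were not tested. The CACCC spelling was common over the panel, and a match of either motif is a description of letters and not of a bound site.

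The first comparison asked what share of the sorted cells met the rule with and without the -77 enhancer. Numbers of such cells per fetal liver were not measured. Library A held 0 of 2235 cells, which allows a share of up to 0.134%, and library B held 1 of 2745 (0.0364%), while library F held 126 of 3042 (4.14%, exact 95% interval 3.46% to 4.91%) and library I held 78 of 1938 (4.02%, 3.19% to 5.00%). Both -77-/- libraries lay far below both WT libraries, and the intervals, which cover counting error alone, did not overlap. The mean share was 0.0182% ± 0.0258 in -77-/- and 4.08% ± 0.0829 in WT (SD, n = 2 each). A model of cell numbers over 6 exclusive classes gave a log2 fold change of -7.35 (SE 0.51, edgeR quasi-likelihood adjusted p = 1.18e-05). In that model 100% of the 6 classes passed the threshold of 0.05. The 6 classes add up to all cells of a library, so they are not separate results. A fall in the marked classes forces a rise in the unmarked cells. Cells outside the 5 marked classes made up the only class that was higher in -77-/- (log2 fold change 0.37, adjusted p = 0.0447), and its call was lost without A or without B (adjusted p = 0.145 and 0.147). The call of cells with Klf1 but no Gata1 UMI was lost without F or without I (adjusted p = 0.0928 and 0.0622). The exact two-sided permutation test over the 4 libraries gave p = 0.333, the smallest that 2 against 2 can give.

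Because WT cells were deeper, the rule was applied again after each cell had been thinned at random to 4346 UMIs, with 855 shallower -77-/- cells and 140 shallower WT cells left out. Libraries A and B then held 0 of 1837 and 1 of 2288, against 34 of 2931 (1.16%) in F and 19 of 1909 (0.995%) in I. The log2 fold change was -5.21 (SE 0.61, edgeR adjusted p = 0.00111). At least 2 UMIs of both genes were found in 0 of 4980 -77-/- cells and in 84 of 4980 WT cells. With no limit on globins the counts were 4 of 4980 in -77-/- and 245 of 4980 in WT. The deficit was therefore present at equal depth, under a stricter detection limit and without the globin limit. Leaving out 1 library at a time gave log2 fold changes between -9.62 and -6.63.

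**Figure D1:**
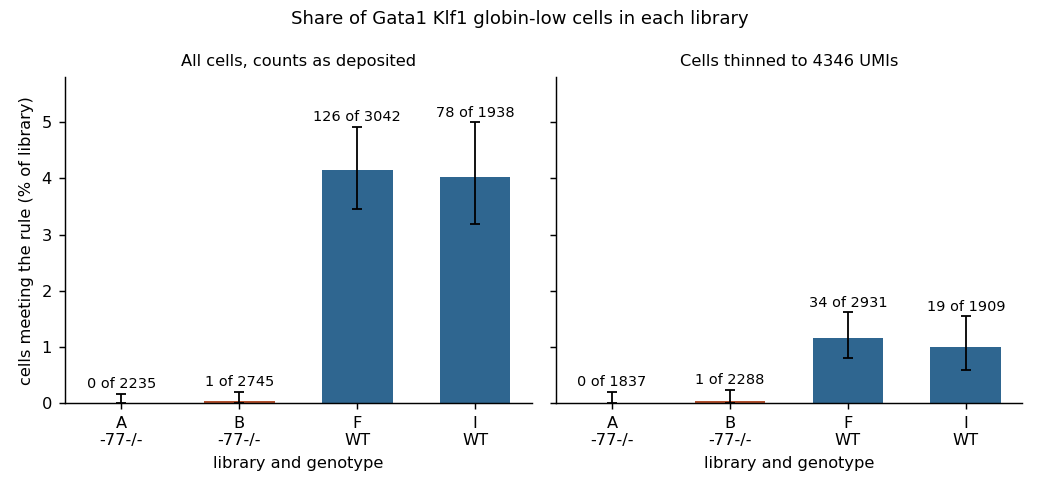
Share of Gata1 Klf1 globin-low cells (percent of each library's cells) in the -77-/- libraries A and B and the WT libraries F and I, with exact 95% binomial intervals, for counts as deposited (left) and for cells thinned to 4346 UMIs (right). A and B hold 0 and 1 such cells in both panels, against 126 and 78 as deposited and 34 and 19 after thinning in F and I.

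Neighbouring classes were rarer in -77-/- as well. Globin-rich cells, with at least 1% of UMIs from the 4 globins, numbered 3 in A and 3 in B, against 31 in F and 31 in I (log2 fold change -3.34, SE 0.51, edgeR adjusted p = 0.000584). Cells with Cpa3, the mast cell carboxypeptidase, that met neither of these rules numbered 8 and 18 in A and B, against 354 and 317 in F and I (log2 fold change -4.73, SE 0.34, adjusted p = 1.18e-05). The remaining cells with Gata1 but no Klf1 UMI numbered 4 and 7 in A and B, against 69 and 37 in F and I, and those with Klf1 but no Gata1 UMI 15 and 5, against 69 and 39. Differences among these classes in the size of the deficit were not tested.

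The cell of library B that met the rule had 5587 UMIs, with 3 of Gata1, 1 of Klf1 and 2 of the globins. It also had 5 UMIs of Gm15915 and 2 of Car2, an erythroid carbonic anhydrase, and 0 of Car1, Pf4, Gfi1b and Gata2. It held 2 UMIs of Mpo, myeloperoxidase. With 1 cell, the -77-/- genotype gave no expression values to compare.

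How well the detection rule separates cells was read from cells of another lineage. Among monocyte-marked cells, defined by at least 1 UMI of both Csf1r and Irf8, 1 of 1096 WT cells met the rule (0.0912%) and 0 of 1075 -77-/- cells did, which allows up to 0.279%. These WT monocyte-marked cells were deeper than the Gata1 Klf1 cells, at a median of 18323 UMIs.

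The values of the rule itself were as follows. In Gata1 Klf1 cells Gata1 had 159 CPM in F and 162 CPM in I (CPM, the gene's UMIs per 1000000 panel UMIs of the summed cells), against 7.54 and 5.43 CPM in all other WT cells. Klf1 had 242 and 205 CPM, against 10.0 and 7.54 CPM. At the detection limit, Gata1 stood at exactly 1 UMI in 54 of 126 cells of F and in 27 of 78 of I, and both genes stood at exactly 1 UMI in 19 and 8 cells. The globin limit fell in an empty range. The largest globin share of a cell inside it was 0.437% in F and 0.277% in I, and the smallest of a Gata1 Klf1 cell outside it was 2.88% and 2.92%.

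The label was checked against marker genes. Gm15915, a non-coding RNA gene, was detected in 125 of the 204 WT Gata1 Klf1 cells, Car2 in 148, Blvrb (biliverdin reductase B of red cells) in 137, Gfi1b in 92 and Car1 in 67. Pf4, platelet factor 4 of megakaryocytes, was detected in 11, and so does not mark these cells. Mpo was detected in 136 and Irf8, a monocyte regulator, in 12, while Gata2 was detected in 139 and Cpa3 in 53. Thinned to 4346 UMIs, Gm15915 was present in 46.0% of Gata1 Klf1 cells of F and 40.3% of I, against 1.25% and 1.09% of other WT cells and 0.331% and 0% of monocyte-marked WT cells. Thinned Pf4 was present in 4.03% and 1.30%, against 1.03% and 0.546% of other WT cells. Gm15915 thus stood far above these other cells, and Pf4 stood closer to them. Myeloid transcripts were present in these cells, at levels given below, and whether some of them hold 2 cells was not tested, since the doublet caller marked 9 of 9960 cells (0.0904%) and 0 of the Gata1 Klf1 cells.

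The second comparison described what the Gata1 Klf1 cells of the WT libraries expressed, relative to all other WT cells of the same libraries. UMIs were summed per library and class and fitted with the library as a block. Of 3615 genes outside the rule, 652 were higher (18%) and 776 were lower (21.5%) at an edgeR adjusted p under 0.05. Of the 1428 called, 1422 had the same sign in both libraries, and 90 were over 2-fold higher and 243 over 2-fold lower in both. With 2 libraries and 2 classes the fit gave all genes a common spread, which makes its adjusted p-values very small. Beside those printed for single genes stand adjusted p-values from a fit that estimates the spread over 4 classes, with remaining WT cells (neither globin-rich nor Cpa3-detected) as the reference.

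Gm15915 had the largest log2 fold change of the 3615 genes in the fit over both libraries. It had 246 CPM in F and 141 CPM in I in Gata1 Klf1 cells, against 3.82 and 2.93 CPM in other WT cells. Both libraries lay far above both references, at a log2 fold change of 5.82 (SE 0.19, edgeR adjusted p = 6.57e-188, and 1.49e-11 with the spread of 4 classes). In library I by itself Car1 was ahead of it (log2 fold changes 5.99 and 5.63), and in the fit over 4 classes Ermap, Car1 and Tspo2 were (6.23, 5.89 and 5.89, against 5.85). The gene (ENSMUSG00000085723.2) lies on the minus strand of chromosome 10 from 93674218 to 93683322 (mm10) and is annotated as antisense, overlapping Ntn4 on the plus strand. Whether counting used strand is not given in the sources used here and was not checked, and Ntn4 was not among the measured genes.

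Car1, an erythroid carbonic anhydrase, had 186 CPM in F and 106 CPM in I, against 4.26 and 1.71 CPM in other WT cells. Its log2 fold change was 5.64 (SE 0.26, edgeR adjusted p = 8.68e-94, and 6.52e-10 with the spread of 4 classes). Car1 UMIs came from 43 of 126 cells in F and 24 of 78 in I, so its mean came from a minority of the cells. Between the libraries, Gm15915 and Car1 were each higher in F.

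Genes of the red cell surface and of erythroid metabolism rose with them. Smim1, the Vel blood group protein, had 173 CPM in F and 135 CPM in I, against 11.7 and 7.30 CPM in other WT cells (log2 fold change 4.02, SE 0.17, edgeR adjusted p = 7.87e-113, and 6.45e-12 with the spread of 4 classes). Ermap had 38.7 and 54.3 CPM, against 2.99 and 2.23 CPM (4.13, SE 0.37), and Icam4 had 50.1 and 40.5 CPM, against 5.82 and 3.76 CPM (3.25, SE 0.34). Tspo2, an erythroid relative of the mitochondrial translocator protein, had 44.1 and 49.2 CPM, against 3.20 and 4.37 CPM. In each of the 4 genes the Gata1 Klf1 cells of both libraries lay above the other cells of both. Blvrb had 225 and 245 CPM, against 38.3 and 33.9 CPM, a log2 fold change of 2.69.

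Of 37 tested genes in a list of hematopoietic regulators, 15 were higher and 15 lower (median log2 fold change -0.08). Samd14, which is not in that list, a sterile alpha motif protein that is a GATA2 target and promotes KIT signalling, had 79.7 CPM in F and 55.2 CPM in I, against 3.64 and 1.86 CPM in other WT cells (log2 fold change 4.64, SE 0.35, edgeR adjusted p = 1.50e-37, and 2.44e-08 with the spread of 4 classes). Cited4, a transcriptional co-activator, had 114 and 68.1 CPM, against 7.28 and 1.77 CPM (4.50, SE 0.31). Zfpm1, which encodes FOG1, the partner protein of GATA1, had 96.0 and 73.3 CPM, against 7.41 and 6.69 CPM (3.58, SE 0.27). Gfi1b had 65.2 and 53.5 CPM, against 7.28 and 6.72 CPM (3.08, SE 0.30). These 4 rose past the threshold under each of the 12 alternatives run for them. The alternative without cells called doublets took out 0 Gata1 Klf1 cells, so it nearly repeats the main fit. Ldb1, an adaptor of the GATA1 complex, and Nfe2, a leucine zipper factor of erythroid and megakaryocyte genes, also rose. Lmo2, which joins LDB1 in that complex, rose by 0.30 on the log2 scale (SE 0.08), a call that was lost with DESeq2 (adjusted p = 0.0756) and without the library block (0.0770).

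Gata2 (ENSMUSG00000015053.14, chromosome 6 from 88193891 to 88207032, plus strand), the gene the deleted enhancer serves, had 143 CPM in F and 150.1 CPM in I, against 21.3 and 18.7 CPM in other WT cells. Its log2 fold change was 2.86 (SE 0.13, edgeR adjusted p = 4.64e-96, and 1.17e-10 with the spread of 4 classes). Gata2 was thus among the genes that rose in cells defined by Gata1 and Klf1. Relative to the Cpa3-detected cells, at 81.2 CPM in F and 50.4 CPM in I, it was also higher (a log2 difference of 1.15, SE 0.15, at an edgeR adjusted p of 6.62e-06).

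**Figure D2:**
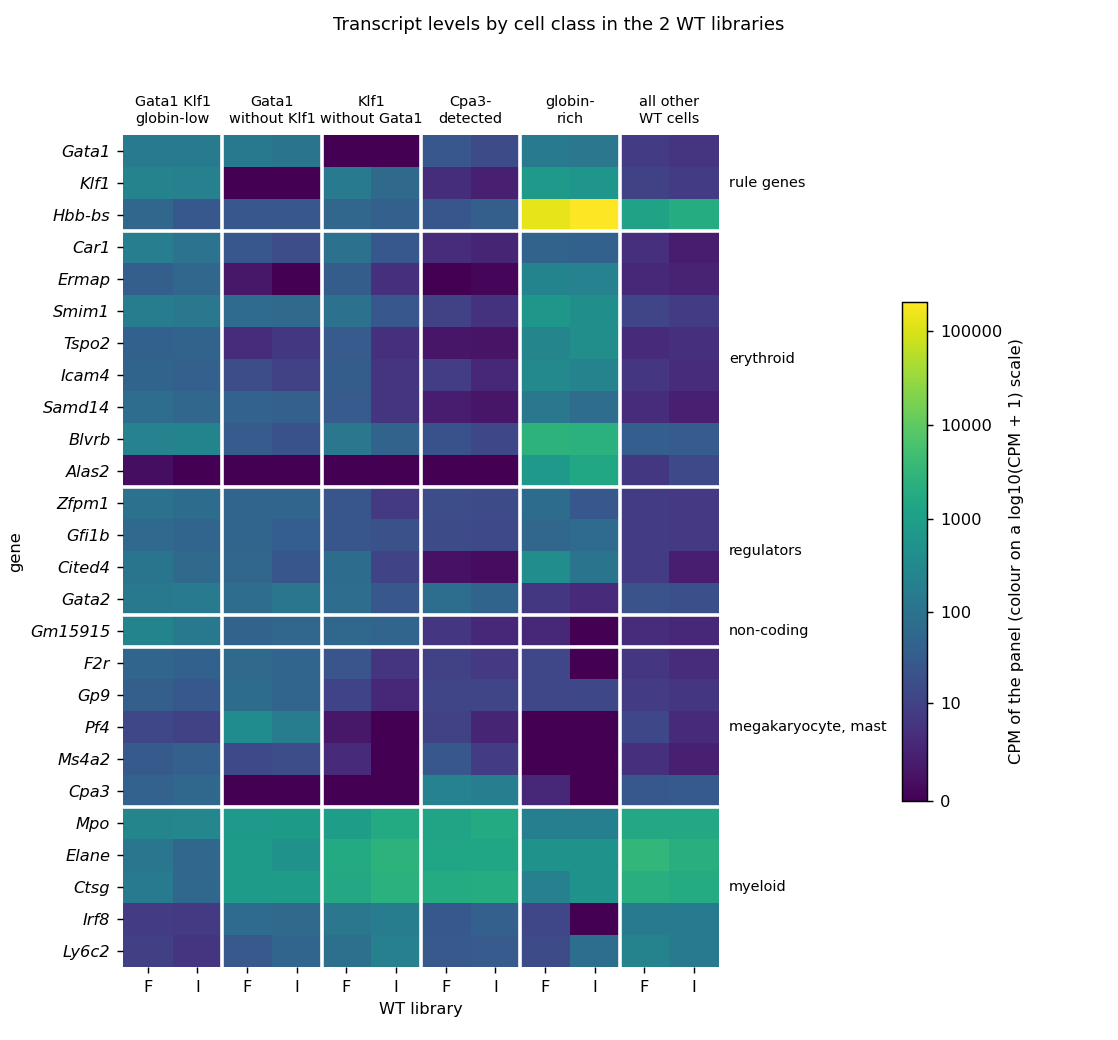
Level of named genes (rows, grouped by role; colour, CPM on a log10(CPM + 1) scale) in 6 groups of WT cells, each in libraries F and I (columns). The Gata1 Klf1 cells share Gata1 and Klf1 with globin-rich cells but hold more Gata2 and Gm15915, hardly any Alas2, and less Elane and Ctsg than all other WT cells, a group that also contains the 4 classes between.

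Megakaryocyte and mast cell transcripts rose in part. Of the megakaryocyte list, which holds Gm15915, 7 of 12 tested genes were higher and 1 lower (median log2 fold change 0.68, against 0.01 over all genes tested). F2r, the thrombin receptor, had 51.9 CPM in F and 43.1 CPM in I, against 5.85 and 3.69 CPM in other WT cells (log2 fold change 3.32, SE 0.34, edgeR adjusted p = 1.83e-21, and 1.65e-06 with the spread of 4 classes). Gp9, a subunit of the platelet receptor for von Willebrand factor, also rose, whereas Pf4 had 12.7 and 9.49 CPM, against 13.03 and 3.51 CPM (log2 fold change 0.48, SE 0.42, edgeR adjusted p = 0.392, and 0.594 with the spread of 4 classes). Of the mast and basophil list 6 of 11 were higher and 3 lower (median 0.70). Ms4a2, the beta chain of the IgE receptor, had 30.2 and 40.5 CPM, against 4.52 and 1.86 CPM (3.52, SE 0.38). Cpa3 rose by a log2 fold change of 0.80 (SE 0.17), while Hdc, the histamine-forming enzyme, and Mcpt8, a basophil protease, did not pass the threshold. With at least 2 UMIs of Gata1 and of Klf1 asked for, the log2 fold change of Cpa3 turned to -0.52 (edgeR adjusted p = 0.267).

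The cells were low in transcripts of the granulocyte and monocyte lineages. Of the neutrophil list 18 of 19 genes were lower and 0 higher (median log2 fold change -3.62), and of the monocyte and macrophage list 19 of 21 were lower and 0 higher (median -3.62). Elane, neutrophil elastase, had 121 CPM in F and 54.3 CPM in I, against 3265 and 2134 CPM in other WT cells (log2 fold change -4.96, SE 0.14, edgeR adjusted p = 7.65e-227, and 4.40e-11 with the spread of 4 classes). Irf8 had 7.85 and 6.90 CPM, against 159.5 and 146 CPM (-4.38, SE 0.19). Ly6c2, a surface protein of classical monocytes, had 9.06 and 5.18 CPM, against 237 and 155 CPM (-4.79, SE 0.18). In all 3 genes both libraries of Gata1 Klf1 cells lay below both references.

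The lowest transcripts were close to absent. Ly86, a partner of a Toll-like receptor relative on antigen-presenting cells, had 1 UMI over all Gata1 Klf1 cells and 3181 over the other WT cells, so that the level in other WT cells was 126 times that in Gata1 Klf1 cells (exact interval 22.6 to 4968). Pld4, a lysosomal exonuclease of myeloid cells, had 1 UMI against 1799, and Cybb, the oxidase subunit of phagocytes, had 2 against 1688. Csf1r, the receptor of macrophage colony-stimulating factor, had 4 UMIs against 2227. Mpo stood at 266 CPM in F and 284 CPM in I, against 1564 and 1592 CPM in other WT cells. Spi1, which encodes PU.1, the myeloid factor that antagonises GATA1, had 102 and 107 CPM, against 388 and 387 CPM (log2 fold change -1.90, SE 0.10).

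**Figure D3:**
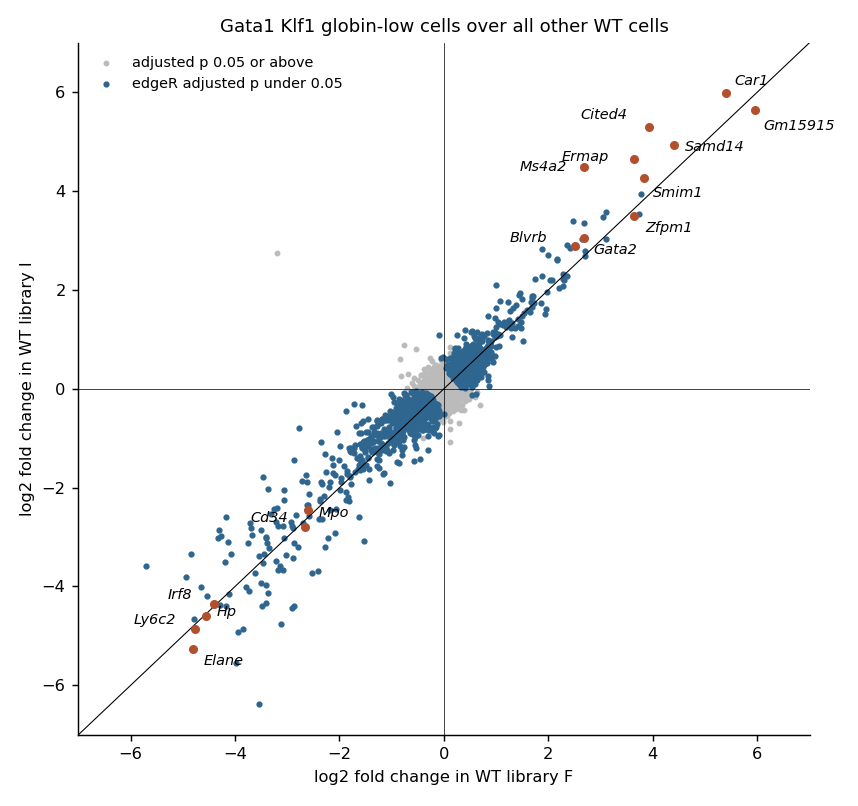
Log2 fold change of Gata1 Klf1 cells over all other WT cells in library F (x axis) and library I (y axis), 1 point per gene, for 3521 genes with at least 20 CPM in the higher class mean and a UMI in both classes of both libraries. Blue points passed an edgeR adjusted p under 0.05, orange points are labelled genes, and the line marks equal change. Car1 and Gm15915 lie at the upper right and Elane at the lower left.

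By list, 20 of 23 erythroid genes were higher and 2 lower (median log2 fold change 2.19). The 2 lower genes were Alas2, the erythroid enzyme of heme synthesis, and Slc4a1, the anion exchanger band 3. Both are late genes, and globin-rich cells are among the other WT cells. With globin-rich and Cpa3-detected cells taken out of the reference, 21 of the erythroid genes were higher and 0 lower (median 4.56). With the rule applied to thinned cells, which leaves 53 WT cells, 10 erythroid, 3 megakaryocyte and 3 mast genes were higher. In that fit 14 neutrophil and 10 monocyte genes were lower. Over all 3605 genes it called 117 higher and 195 lower, fewer than the fit with all Gata1 Klf1 cells. Of the heme and iron list 10 of 19 were higher and 4 lower. Alad, Cpox and Urod, enzymes of the pathway after its first step, rose, while Alas1, the housekeeping form of the first enzyme, had 10.9 CPM in F and 7.76 CPM in I, against 97.3 and 89.3 CPM in other WT cells (log2 fold change -3.31, SE 0.20).

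Stem and multipotent progenitor genes went both ways, with 7 of 19 higher and 8 lower (median log2 fold change -0.26). Meis1, a homeobox factor of stem cells, rose by 1.19 on the log2 scale (SE 0.24), and Kit by 0.70 (SE 0.14). With at least 2 UMIs of both rule genes asked for, Meis1 was not called (log2 fold change 0.53, edgeR adjusted p = 0.308). Cd34 had 31.4 CPM in F and 30.2 CPM in I, against 192 and 216 CPM in other WT cells (log2 fold change -2.72, SE 0.13, edgeR adjusted p = 6.80e-90, and 1.78e-11 with the spread of 4 classes), although the sort had selected cells by CD34 protein. Flt3, the receptor of lymphoid-primed progenitors, was also lower. Of 14 cytokine receptor genes 4 were higher, Igf1r, Kit and Il17ra among them, and 10 were lower.

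Of the G2/M list of cycling genes, 13 of 30 genes were higher and 1 lower (median log2 fold change 0.21), with Mki67 at 188 CPM in F and 159 CPM in I, against 107 and 105 CPM in other WT cells (log2 fold change 0.71, SE 0.09). By DESeq2 5 of the G2/M genes were higher and 0 lower, where 259 of all 3615 genes were higher and 467 lower. With the rule applied to thinned cells 4 and 0 were, where 117 of all 3605 genes were higher and 195 lower. In the main edgeR fit 3 of 31 genes of the S phase list were higher and 4 lower (median 0.03). The share of higher genes in the S phase list lay below the background of 18%. Of 20 antigen presentation and immune genes 1 was higher and 16 lower, and of 6 dendritic cell genes 4 were lower. The single tested hepatoblast and endothelial markers, Dlk1 and Egfl7, were not called, at log2 fold changes of -0.24 and 0.10. Hmox1, the measured marker of mature liver macrophages, had 2.42 and 3.45 CPM, against 3.82 and 2.29 CPM. Of 4 lymphoid genes 2 were lower, and of 2 immediate early genes Ier2 was lower.

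Some further genes were named by the size of their rise. Sapcd1, of which little is known, had 47.7 CPM in F and 54.3 CPM in I, against 3.35 and 3.63 CPM in other WT cells. Muc13, a transmembrane mucin, had 49.5 and 63.0 CPM, against 7.44 and 6.32 CPM, and Rnase12, of the ribonuclease A family, had 42.9 and 44.0 CPM, against 7.49 and 4.27 CPM. Their log2 fold changes were 3.86, 3.01 and 2.90. Socs2, a feedback suppressor of cytokine receptor signals and chosen after its values had been seen, had 8.46 and 10.4 CPM, against 1.64 and 1.25 CPM (log2 fold change 2.67, SE 0.53, edgeR adjusted p = 2.80e-06, and 0.00497 with the spread of 4 classes). It had 26 UMIs in all in these cells, and it lost the call when the rule was applied to thinned cells (adjusted p = 0.665). In those 53 cells the calls of Icam4, F2r, Ms4a2, Sapcd1, Muc13, Rnase12, Ldb1, Nfe2, Lmo2, Gp9, Cpa3, Meis1, Kit, Igf1r, Il17ra, Pld4, Cybb, Csf1r, Flt3 and Ier2 were lost as well, with edgeR adjusted p-values from 0.0591 to 0.801.

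The third comparison set the Gata1 Klf1 cells against the globin-rich WT cells, 62 cells in which globins filled 29.1% of UMIs in F and 43.1% in I. Levels here are CPM of the panel without the 4 globins. Of 3568 genes 680 were higher (19.1%) and 729 lower (20.4%) at an edgeR adjusted p under 0.05. With library totals as the scale, the median over genes was 1.07 (log2) in place of 0.06, and the split became 2503 higher and 236 lower, so directions below are relative to the typical gene.

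Late erythroid genes stood far lower. Alas2 had 0.604 CPM in F and 0 UMIs in I in Gata1 Klf1 cells, against 1027 and 2649 CPM in globin-rich cells, and Slc4a1 had 0.604 and 0.863 CPM, against 893 and 1272 CPM. Trim10, a tripartite motif protein of terminal erythropoiesis, had 5 UMIs over all Gata1 Klf1 cells and 351 in globin-rich cells. Tmcc2 had a log2 fold change of -7.90. Of the erythroid list 20 of 23 genes were lower and 0 higher, of the heme and iron list 17 of 18 were lower, and of the erythroid membrane list 10 of 10. Scaled by library totals, 18, 15 and 9 of these were lower, and 3, 0 and 0 were higher. Car1 was not called between the 2 classes, at 186 and 106 CPM, against 69.1 and 75.5 CPM (log2 fold change 0.68, SE 0.29, edgeR adjusted p = 0.0694). It was called as higher with at least 2 UMIs of Gata1 and of Klf1 (log2 fold change 1.34).

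Other transcripts of the Gata1 Klf1 cells were at 0 in the globin-rich ones. Lgals9, galectin-9, had 248 CPM in F and 241 CPM in I, against 0 UMIs in both libraries, at least 33.0-fold higher when 3 UMIs are allowed over the 62 globin-rich cells. Ikzf2, the Helios zinc finger factor, was at least 17.6-fold higher and Ctla2a, a cysteine protease inhibitor, at least 16.3-fold higher. Ddah2, Spns2 and Slc22a3 were also at 0 UMIs in globin-rich cells. Myb, a factor of immature progenitors, had 238 and 248 CPM, against 12.9 and 17.4 CPM (log2 fold change 3.65, SE 0.34, edgeR adjusted p = 3.65e-08). In these cells Gata2 had 143 and 150.1 CPM, against 8.63 and 5.81 CPM, from 3 UMIs (ratio 19.6, exact interval 6.66 to 95.5).

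Cell cycle genes were lower in the Gata1 Klf1 cells than in globin-rich cells. Of the S phase list 22 of 31 genes were lower and 1 higher, and of the G2/M list 25 of 30 were lower and 0 higher. Scaled by library totals, the S phase list split into 6 higher and 6 lower (median log2 fold change -0.04) and the G2/M list into 3 higher and 12 lower (median -0.25), where the median over all genes was 1.07. Rrm2, a subunit of ribonucleotide reductase, had 121 CPM in F and 127 CPM in I, against 565 and 895 CPM in globin-rich cells (log2 fold change -2.89, SE 0.14). Mki67 had 188 and 159 CPM, against 613 and 697 CPM (-2.27, SE 0.13). Elane was also lower, at 121 and 54.3 CPM, against 742 and 895 CPM in globin-rich cells. The part of RNA from other cells in this value was not tested.

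The fourth comparison set them against the Cpa3-detected WT cells, 671 cells chosen by a mast cell gene. Of 3567 genes 850 passed the threshold (23.8%), of which 333 were higher (9.34% of all) and 517 lower. Ermap had 64 and 63 UMIs in Gata1 Klf1 cells of F and I and 1 UMI over the Cpa3-detected cells (ratio 465, exact interval 82.1 to 18528). Cited4 had 114 CPM in F and 68.1 CPM in I, against 0.851 and 0.534 CPM, and Tspo2 had 44.1 and 49.2 CPM, against 1.06 and 0.891 CPM. Of the erythroid list 19 of 23 genes were higher and 0 lower (median log2 fold change 3.08, against 0.01 over all genes).

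Genes of the neutrophil list were lower, with 16 of 17 down (median log2 fold change -2.41). Ctsg, cathepsin G, had 155 CPM in F and 60.4 CPM in I, against 1816 and 1959 CPM in Cpa3-detected cells (log2 fold change -4.07, SE 0.31, edgeR adjusted p = 5.28e-09). Of the mast and basophil list 3 of 10 were higher and 5 lower. Hdc and Mcpt8 were lower (log2 fold changes -1.15 and -1.99). The call of Hdc was lost with DESeq2 (adjusted p = 0.0650) and with thinned cells (0.204), and that of Mcpt8 with at least 2 UMIs of both rule genes (0.0835) and without the library block (0.0650). Lat, the linker of T cell and mast cell signalling, was higher (log2 fold change 1.83, SE 0.24). S phase genes were called in 3 of 31 cases, and 9 of 30 G2/M genes were higher.

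**Figure D4:**
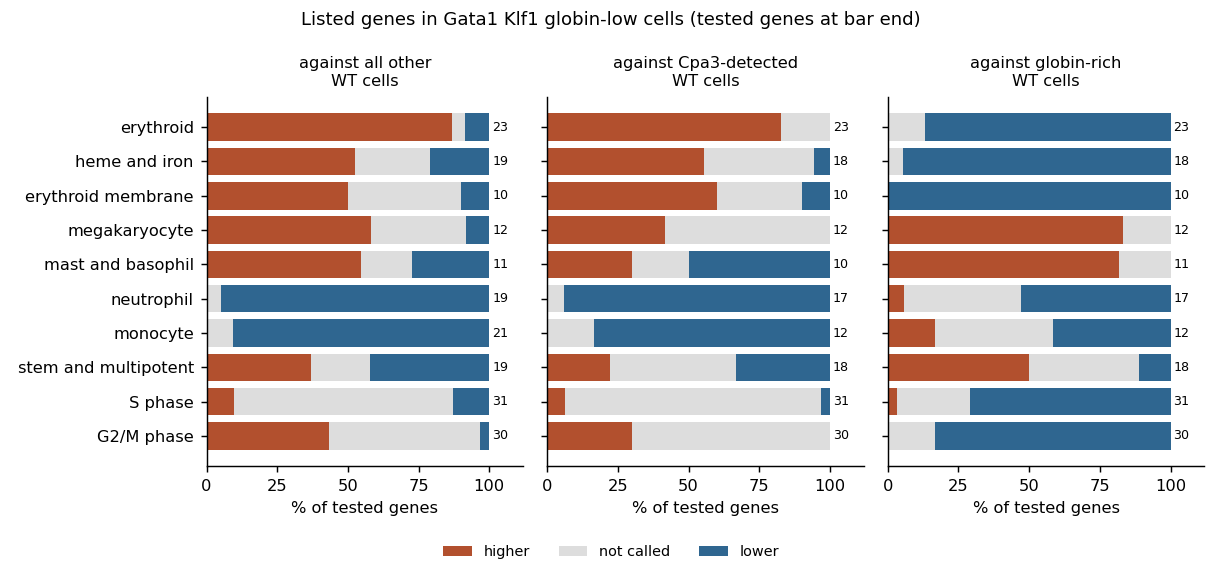
Share of the tested genes of 10 lists (rows; number tested at the bar end) that were higher, not called or lower in Gata1 Klf1 cells, relative to all other WT cells, Cpa3-detected WT cells and globin-rich WT cells. Erythroid genes were higher in the first and second panels (20 and 19 of 23) and lower in the third (20 of 23).

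Cells with 1 of the 2 regulators gave a further reference, described without a test. In WT cells with Gata1 but no Klf1 or Cpa3 UMI, Pf4 reached 387 CPM in F and 172 CPM in I, against 12.7 and 9.49 CPM in the Gata1 Klf1 cells. The 12 measured genes of the megakaryocyte list, Gm15915 among them, summed to 982 CPM in F and 788 CPM in I in Gata1 Klf1 cells, and to 2076 and 1236 CPM in cells with Gata1 alone. Ermap went the other way, at 38.7 and 54.3 CPM in the Gata1 Klf1 cells, against 1.24 CPM and 0 UMIs in cells with Gata1 alone. Cells with Klf1 alone held Elane at 1749 and 2676 CPM, against 121 and 54.3 CPM in Gata1 Klf1 cells. Their Ermap differed between the libraries, at 35.4 CPM in F and 4.23 CPM in I.

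The Gata1 Klf1 cells were not uniform, and splits of them, chosen after their values had been seen, are given as levels with no test. Cells with Ermap UMIs, 24 in F and 20 in I, had 615 and 364 CPM of Mt2, a metallothionein, against 43.1 and 16.5 CPM in the cells without. Blvrb stood at 630 and 658 CPM with Ermap, against 124 and 94.2 CPM without, and Tspo2 at 145 and 132 CPM, against 18.9 and 18.8 CPM. Klf1 itself stood at 410 and 332 CPM, against 199 and 159 CPM, while Gata1 stood at 175 and 194 CPM, against 155 and 151 CPM. Gata2 was lower with Ermap, at 48.2 and 61.3 CPM, against 166 and 183 CPM, and so was Spi1, at 30.1 and 25.8 CPM, against 120 and 137 CPM. Median depths were alike, at 12675 and 14761.5 UMIs with Ermap and 12745 and 14309 without.

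The cells were also split by Gata2. In the 84 and 55 cells with a Gata2 UMI, Ms4a2 had 44.5 CPM in F and 54.8 CPM in I, against 0 UMIs in the 42 cells of F and 1 UMI in the 23 cells of I without Gata2. Rhd, the Rhesus blood group gene, had 3.56 CPM in F and 0 UMIs in I with Gata2, against 46.9 and 53.2 CPM without. Hemgn, hemogen, a nuclear protein of erythroid cells, had 16.9 and 10.7 CPM, against 69.4 and 59.4 CPM. Car1 was higher with Gata2 in F and alike in I, at 216 and 106 CPM, against 124 and 106 CPM without. It was detected in 32 of 84 and 19 of 55 cells with Gata2, against 11 of 42 and 5 of 23 without. Cells with no Gata2 UMI may still express the gene at this depth.

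**Figure D5:**
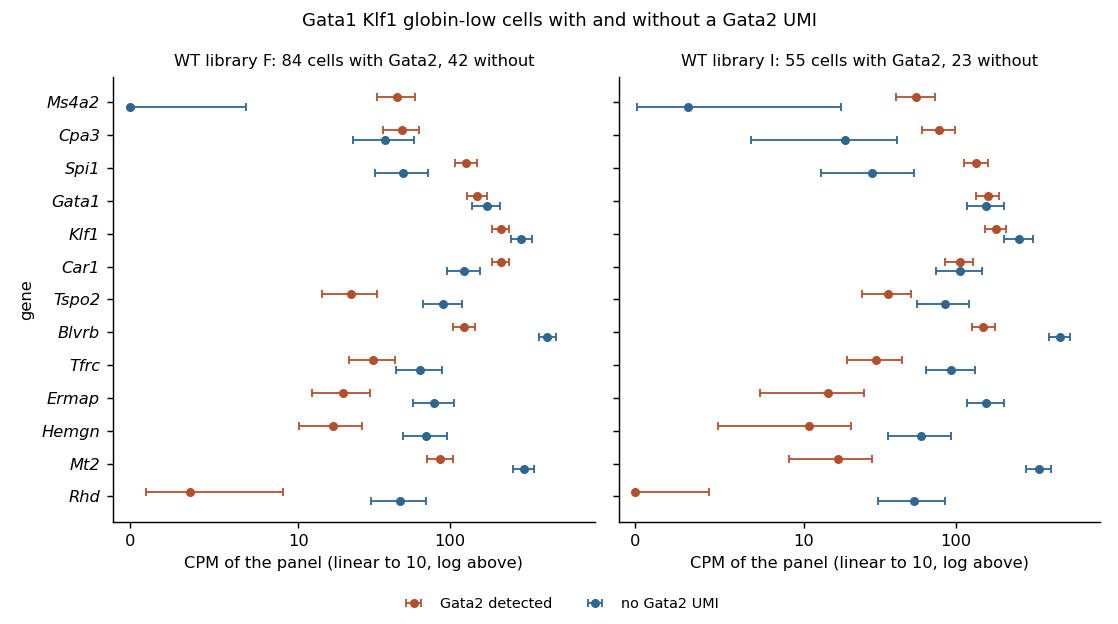
Level of 13 genes (rows) in Gata1 Klf1 cells with a Gata2 UMI (orange, 84 cells in F and 55 in I) and without one (blue, 42 and 23), in CPM of the panel on an axis that is linear to 10 and logarithmic above. Bars are exact 95% Poisson intervals of the summed UMIs. Ms4a2 and Spi1 lie higher with Gata2, and Ermap, Hemgn, Mt2 and Rhd lie higher without it, in both libraries.

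Car1 gave a further split of the cells. Cells with a Car1 UMI, 43 in F and 24 in I, had 134 and 89.7 CPM of Mpo, against 342 and 378 CPM in those without. Cd34 stood at 4.95 and 7.92 CPM with Car1, against 46.7 and 41.0 CPM without, and Gm15915 at 318 and 248 CPM, against 204 and 89.7 CPM. Gata2 was lower with Car1 in F and higher in I, at 124 and 156 CPM, against 153 and 147 CPM. Gm15915 and Car1 were detected together in 36 cells of F and 18 of I, and neither was detected in 36 and 30. Car1 stood at 74.8 CPM in F and 87.6 CPM in I in cells with 1 UMI of Gata1, at 113 and 25.6 CPM in those with 2, and at 392 and 185 CPM in those with 3 or more. In I the level at 2 UMIs was thus the lowest of the 3. Mpo was lower at each step, at 359 and 367 CPM, 293 and 268 CPM, and 124 and 228 CPM. These steps are of a gene of the rule, and median depth moved with them, at 11026.5, 12957.5 and 12923 UMIs in F and 12284, 13897 and 15468.5 UMIs in I, whose part was not tested.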

How the data were processed

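Single-cell RNA was measured in 4 libraries. The deposited table holds raw UMI counts of 3624 genes in 9960 cells. It is named as a subsample and holds 4980 cells per genotype, so these need not be all captured cells. Cell Ranger 2.0.2, Seurat 2.3.4 and mm10 are named per the submitters' processing notes. How the cells were drawn, and any further filter, are not given in the sources used here. The table carries no header, and the deposited grouping, which gives genotype and library letter, was read in the same cell order. The cell rule, the gene lists and the splits were chosen with earlier results of these data known.

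UMIs were summed per library and class and tested with the two-sided quasi-likelihood test of edgeR 4.0.16 in R 4.3.3, after filterByExpr and TMM and with the library as a block, with Benjamini-Hochberg adjustment over all genes and a threshold of 0.05. The 6 genes of the rule, and Cpa3 in the Cpa3 comparison, were left out of calls. Both sums of a library come from the same embryo, which is where the block comes from. A positive log2 fold change means higher in Gata1 Klf1 cells, or in -77-/- for shares, and its SE comes from the fit. Classes were exclusive, in the order Gata1 Klf1, globin-rich, Cpa3-detected, Gata1 without Klf1, Klf1 without Gata1 and none.

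Library totals ran from 16837863 to 40117680 UMIs, and in the WT libraries the Gata1 Klf1 cells summed to 1655689 UMIs in F and 1159316 in I. Intervals and limits (3 counts for a count of 0) cover counting error only. Doublets were looked for with Scrublet (scanpy 1.11.5), which did not work on these libraries, and no cell was removed. Counts were simulated with the WT libraries' means and the same fixed spread for all genes. On them the comparison with other WT cells recovered 80% of 1.5-fold and 98% of 2-fold changes. It called 8 unchanged genes of 3623 tested. The comparison with globin-rich cells recovered 33.3% and 66%, and that with Cpa3-detected cells 80% and 100%. Spread that differs between genes was not simulated, so these values do not give the rate of false calls in the data.

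Named were Gata2, the 5 markers given with the label, the 6 rule genes, the 15 largest rises and 10 largest falls against other WT cells (same sign in both libraries, at least 20 CPM in the higher class mean), 6 and 6 in the other comparisons, and up to 4 genes of smallest p per list. Other genes named beside a list count were chosen after their values had been seen. Some genes that this rule names are not reported here, and they stay in the counts over lists. Symbols were matched to GENCODE M21 (3522 of 3624 had a single gene). Alternatives were DESeq2 1.42.0, other scalings and filters, thinned cells and left-out libraries.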

Additional observations from a re-analysis of the deposited data

How the results depend on the processing

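With 2 WT libraries, leaving 1 out leaves no residual degrees of freedom in the comparisons of cell classes, which then give values without a test. No paired analysis was possible because the genotypes share no embryo and the library letters carry no replicate number. In the class comparisons the library served as the block. Without it, 456 genes were higher and 608 lower than in other WT cells, 656 and 701 than in globin-rich cells, and 241 and 407 than in Cpa3-detected cells.

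The genotype difference kept its direction and its side of the threshold under all alternatives run, with log2 fold changes from -9.62 to -6.63 when 1 library was left out. The alternative without cells called doublets took out 9 of 9960 cells, so it nearly repeats the fit reported. Counts of called genes moved with the tool and the rule. Against other WT cells, DESeq2 called 259 higher and 467 lower, the rule on thinned cells 117 and 195, and at least 2 UMIs of both genes 350 and 621. Against globin-rich cells, library totals gave 2503 higher and 236 lower, DESeq2 403 and 624, and thinned cells 266 and 372. Against Cpa3-detected cells, DESeq2 called 113 higher and 183 lower, and thinned cells 69 and 107. The thinned rule leaves fewer cells, and the cause of the other shifts was not tested.

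Of the genes named by the rule, 3 values changed sign where the gene was past the threshold in the fit reported or in the alternative. They came from 2 genes, Prg2 and Prg3, and 0 of the 3 were past it in the fit reported. A further 25 changed sign with the gene past it in neither, and 16 with 1 library left out and no test. Cpa3 against other WT cells is outside these counts, since the rule did not name it. Called at 0.80, it turned to -0.52 with at least 2 UMIs of both genes. Prg2, an eosinophil granule gene, went to -11.51 on the log2 scale with at least 2 UMIs of both genes and to -4.10 without the cells with myeloid transcripts, an alternative added after the data had been seen. Prg3, its paralog, went to 1.01 against cells without the globin-rich and Cpa3-detected ones.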

Other observations

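Prg2, the eosinophil major basic protein, had 3.02 CPM in F and 54.3 CPM in I in Gata1 Klf1 cells, against 26.7 and 8.27 CPM in other WT cells. The library F value lay below its reference and the library I value above it. All 63 UMIs of library I came from 1 of its 78 Gata1 Klf1 cells.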
